A study of Mus musculus with 4 samples.

Results

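A set of 9 erythroid genes was examined in RUNX1 and H3K27me3 ChIP-seq peak lists of mouse hematopoietic progenitors, and 43 of the 24972 RUNX1 sites of the experiment lay inside the 9 genes or within 50 kb of them. The genes were Klf1, the globin genes Hba-x, Hba-a1, Hbb-bh1 and Hbb-bt, the membrane genes Ank1, Slc4a1 and Epb42, and the iron uptake gene Tfrc. They were chosen as a list of known erythroid genes among the 21938 protein-coding genes of the GENCODE vM21 annotation on mm10. The choice was made with earlier results of these data known. A site was placed in the window of a gene when the summit of a peak, the base with the highest pile-up of reads, fell in the gene body or within 50 kb of it. The windows of Hba-x and Hba-a1 overlap, and so do those of Hbb-bh1 and Hbb-bt, so the 9 windows cover 7 separate stretches of 978 kb in all.

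The cells were floating hematopoietic progenitors on day 2 of culture, derived in vitro from embryonic stem cells. Every library came from cells with a Tet-on dominant-negative FOS (dnFOS) transgene, which doxycycline (DOX) switches on and which keeps JUN partners of the AP-1 family off the chromatin. RUNX1 was measured in 1 library labelled +DOX and 1 labelled -DOX, and H3K27me3, the histone mark laid down by Polycomb complexes at silenced genes, in 2 further libraries. No library was replicated, so no test between conditions was possible, and the values below describe these libraries only. For both RUNX1 libraries the title and the treatment label go against the name of the sequencing run kept inside the peak list, so each is named by its label only, and every direction between the pair turns around if the labels are the wrong ones. Titles and treatment labels contradict each other for both H3K27me3 libraries, so these are told apart only by their titles (untreated and DOX) and no conditions were compared. The protocol filed with them names the RUNX1 antibody, although their antibody label is H3K27me3. The lists held 18389 peaks (RUNX1 labelled -DOX), 21831 (RUNX1 labelled +DOX), 6356 (H3K27me3 titled untreated) and 7233 (H3K27me3 titled DOX). The H3K27me3 peaks were narrow, with median widths of 180 bp (titled untreated) and 122 bp (titled DOX). How fully such calls cover the mark was not tested, so a missing call does not show that the mark is absent. Sequencing depth is unknown, no RNA was measured, and the erythroid identity of the cells could not be checked against marker transcripts.

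Erythroid genes are switched on as progenitors mature into red cells. KLF1 and GATA1 act together on most of them, and RUNX1, which is needed to form blood progenitors, is turned down as erythroid cells mature and can restrain erythroid genes including Klf1 in progenitors. The alpha- and beta-globin genes depend on distant elements. In the mouse alpha-globin locus the elements R1 to R4 and Rm lie upstream, most of them in introns of the neighbouring gene Nprl3. In the beta-globin locus a series of DNase I hypersensitive sites upstream of Hbb-y, 5'HS1 to 5'HS6, forms the locus control region. Several of these elements carry sites for GATA1 and for NF-E2, a MAF and p45 dimer whose DNA site contains the AP-1 sequence.

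A set of 10 RUNX1-bound sequences is shown because the findings turn on them: 4 of the alpha-globin upstream region, 4 of the beta-globin locus, and sites upstream of Slc4a1 and Tfrc. Each is the 200 bases around the RUNX1 summit, read 5′ to 3′ on the plus strand of GRCm38.p6 (mm10). Capitals mark matches on either strand to motifs given here by their letters. The GATA motif was AGATAA, the RUNX motif TGTGGTT, the AP-1 motif TGACTCA or also TGAGTCA, and the ETS motif CAGGAAA or CAGGAAG, or else CCGGAAA or CCGGAAG. The PU.1 motif, which can overlap an ETS match, was GAGGAAGT, the C/EBP motif TTGCNNAA, and the KLF motif, which SP factors also use, CCNCNCCC. A match is a run of letters, not evidence that a protein was bound to it.
alpha-globin R1, chr11:32245663-32245862: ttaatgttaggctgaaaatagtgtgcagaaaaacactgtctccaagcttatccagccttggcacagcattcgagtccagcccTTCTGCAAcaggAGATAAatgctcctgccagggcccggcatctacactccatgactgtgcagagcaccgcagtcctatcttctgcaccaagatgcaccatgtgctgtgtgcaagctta
alpha-globin R2, chr11:32250946-32251145: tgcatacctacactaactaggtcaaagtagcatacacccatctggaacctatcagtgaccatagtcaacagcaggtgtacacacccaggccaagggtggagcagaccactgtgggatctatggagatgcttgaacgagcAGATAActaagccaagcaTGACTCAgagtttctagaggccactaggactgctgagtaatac
alpha-globin Rm, chr11:32265193-32265392: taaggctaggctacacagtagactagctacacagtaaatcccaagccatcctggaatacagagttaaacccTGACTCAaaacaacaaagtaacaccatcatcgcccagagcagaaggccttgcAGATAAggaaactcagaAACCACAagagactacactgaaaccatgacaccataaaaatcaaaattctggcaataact
between Nprl3 and Hba-x, chr11:32271225-32271424: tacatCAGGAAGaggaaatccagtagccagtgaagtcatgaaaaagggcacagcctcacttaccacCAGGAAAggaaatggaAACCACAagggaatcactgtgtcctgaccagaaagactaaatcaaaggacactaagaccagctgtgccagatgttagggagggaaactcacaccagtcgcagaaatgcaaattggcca
beta-globin 5'HS1, chr7:103859142-103859341: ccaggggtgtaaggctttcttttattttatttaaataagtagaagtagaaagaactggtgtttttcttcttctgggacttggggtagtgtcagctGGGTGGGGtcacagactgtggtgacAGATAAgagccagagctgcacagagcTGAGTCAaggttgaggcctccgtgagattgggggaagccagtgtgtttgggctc
beta-globin 5'HS2, chr7:103860974-103861173: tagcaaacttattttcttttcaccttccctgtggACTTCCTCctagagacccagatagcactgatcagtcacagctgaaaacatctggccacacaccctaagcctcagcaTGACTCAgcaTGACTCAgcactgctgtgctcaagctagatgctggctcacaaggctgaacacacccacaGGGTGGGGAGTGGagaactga
beta-globin 5'HS4, chr7:103870772-103870971: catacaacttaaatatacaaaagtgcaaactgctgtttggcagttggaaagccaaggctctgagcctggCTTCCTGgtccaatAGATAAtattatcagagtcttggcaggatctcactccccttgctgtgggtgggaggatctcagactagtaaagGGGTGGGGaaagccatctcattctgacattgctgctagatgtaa
between Hbb-bh1 and Hbb-y, chr7:103849074-103849273: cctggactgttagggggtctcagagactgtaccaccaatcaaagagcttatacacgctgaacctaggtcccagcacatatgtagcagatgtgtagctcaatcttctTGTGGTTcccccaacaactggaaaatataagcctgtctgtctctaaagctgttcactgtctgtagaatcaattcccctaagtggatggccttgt
upstream of Slc4a1, chr11:102368427-102368626: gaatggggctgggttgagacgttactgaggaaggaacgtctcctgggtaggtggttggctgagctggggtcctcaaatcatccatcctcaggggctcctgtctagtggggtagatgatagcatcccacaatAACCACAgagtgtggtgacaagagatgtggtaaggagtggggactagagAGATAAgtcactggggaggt
upstream of Tfrc, chr16:32608092-32608291: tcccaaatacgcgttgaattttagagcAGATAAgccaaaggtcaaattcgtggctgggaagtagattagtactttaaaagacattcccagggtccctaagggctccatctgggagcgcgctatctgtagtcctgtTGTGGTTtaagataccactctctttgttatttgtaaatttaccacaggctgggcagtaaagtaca

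All 9 genes had at least 1 RUNX1 site in their window, against 78.0% of all protein-coding genes. The windows held 2 sites (Ank1), 5 (Epb42), 6 (Klf1), 9 (Hbb-bh1) and 7 each for Hba-x, Hba-a1, Hbb-bt, Slc4a1 and Tfrc. The median of the 9 genes was 7 sites, against 3 sites over all protein-coding genes with quartiles of 1 and 5. Between 35.4% (Ank1) and 95.1% (Hbb-bh1) of protein-coding genes had fewer sites. Per 100 kb of window, gene body included, the median was 5.96 sites for the 9 genes and 1.84 for all protein-coding genes. The range over the 9 genes ran from 0.726 (Ank1) to 8.86 (Hbb-bh1). Both counts include sites nearest to the start of a neighbouring gene. The overlapping globin windows share most of their sites, so these counts are not 9 separate observations.

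**Figure D1:**
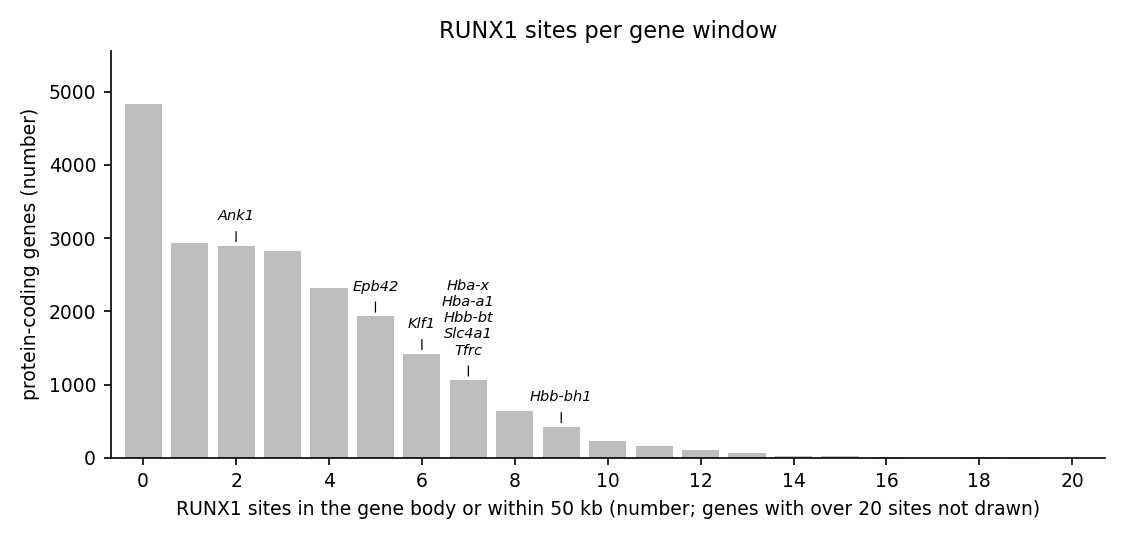
Number of protein-coding genes (y axis) by the number of RUNX1 sites in their window (x axis), with the 9 erythroid genes named above the bar they fall in; genes with over 20 sites are not drawn. Ank1 with 2 sites sits below the median of 3, and Hbb-bh1 with 9 sites lies farthest to the right.

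A RUNX1 summit lay within 1500 bp of a transcription start in 5 of the 9 genes, and each of these 5 had it in both lists: Klf1, Hba-x, Ank1, Epb42 and Tfrc. The share over all protein-coding genes was 50.03%, so 5 of 9 is near the background. The starts of Hba-a1, Hbb-bh1, Hbb-bt and Slc4a1 had none. For 10 of the 43 sites the nearest annotated start was that of 1 of the 9 genes (4 for Tfrc, 2 for Ank1, 1 each for Klf1, Hba-x, Slc4a1 and Epb42), and for the others it was that of a neighbour.

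Both RUNX1 lists shared 32 of the 43 sites (74.4%, exact 95% binomial interval 58.8 to 86.5, counting error only), against 56.8% of all sites. The library labelled +DOX alone held 7 sites (16.3%, 6.81 to 30.7, against 28.4% of all sites), and the library labelled -DOX alone held 4 (9.30%, 2.59 to 22.1, against 14.8% of all sites). The lists differ in length. With the 5000 strongest peaks of each, which gave 16 sites, the order turned. Of these, 3 were only in the list labelled +DOX and 8 only in the list labelled -DOX. The order did not turn when peaks needed a -log10 q, the peak caller's significance score, of at least 10 or 5. The first left 23 sites, 6 only labelled +DOX and 5 only labelled -DOX, and the second 39 sites, 8 and 3. No share over all sites is given at these settings, so the moves cannot be called particular to the 9 genes. The cause of these moves was not tested. The 11 sites of a single list were weak. Their highest -log10 q was 6.62 in the list labelled -DOX and 7.20 in the list labelled +DOX, whereas 23 of the 32 shared sites reached 10 in the list where they ranked higher, as did 67.1% of all shared sites. Weak scores were also usual over the whole lists, where 8.13% of the sites found only in the list labelled -DOX and 13.3% of those found only in the list labelled +DOX reached 10. At such scores a site missing from a list is a site not called, not a site shown to be unbound.

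**Figure D2:**
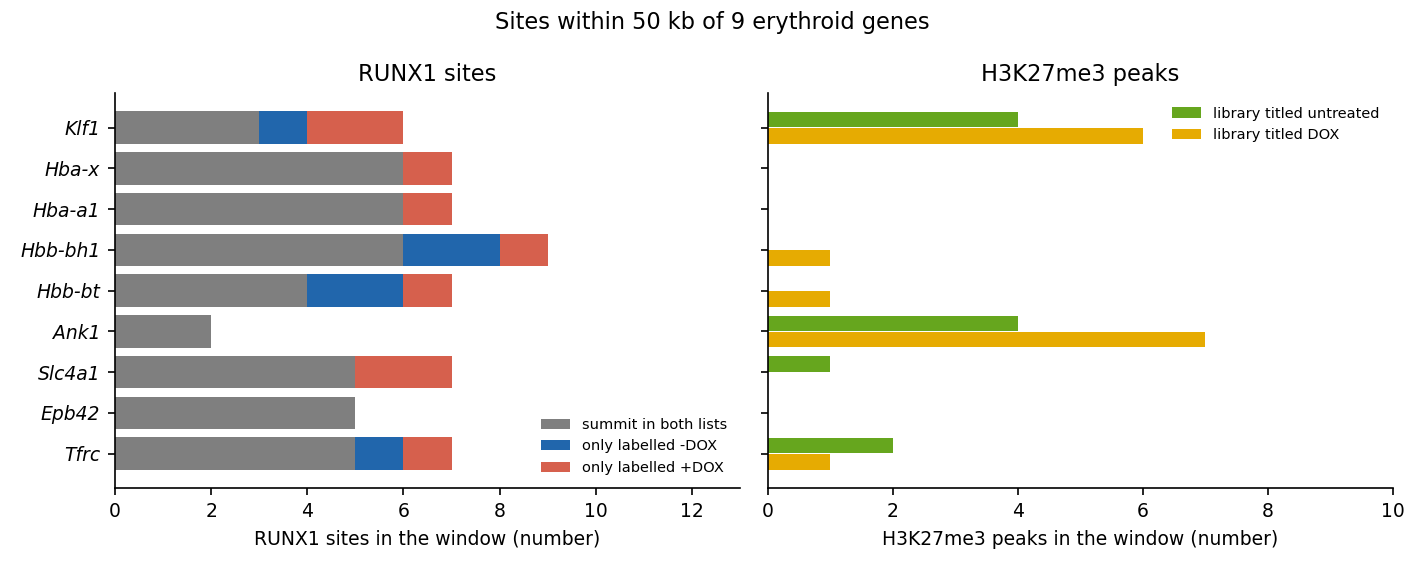
Left, RUNX1 sites in the window of each gene (x axis, number), stacked by whether a summit was in both lists or in 1 of them; right, H3K27me3 peaks in the same windows for each of the 2 libraries. Most bars on the left are grey, meaning both lists, and H3K27me3 peaks gather at Klf1 and Ank1 while both alpha-globin genes and Epb42 have 0.

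Klf1 (chr8:84901928-84905291), which encodes the erythroid KLF factor that activates globin and membrane genes, carried a RUNX1 site in its own body in both lists. The summit at chr8:84903197 lay in a coding exon, 1269 bp downstream of the start. Its -log10 q was 8.56 (labelled -DOX) and 6.28 (labelled +DOX), at percentiles 52.5 and 33.2 of the respective list, so it was of middling to low rank in both. The percentile is the share of peaks of the same list with an equal or lower -log10 q, and it allows a rank to be compared between lists of different size. The other 5 sites of the window lay nearest to the starts of Farsa, Syce2, Gcdh, Dnase2a and Mast1, and 3 of these 5 were in 1 list only. The strongest of the window was at Syce2, with a -log10 q of 15.7 labelled -DOX and 20.6 labelled +DOX.

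The Klf1 window also held H3K27me3 peaks, 4 in the library titled untreated and 6 in the library titled DOX. None lay in Klf1 itself. They were nearest to Dnase2a, Mast1 and Rtbdn, with -log10 q from 6.59 to 10.6 in the library titled untreated and from 1.36 to 8.74 in the library titled DOX.

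At the alpha-globin locus RUNX1 sites lay over the upstream enhancers and over the embryonic gene, and none over the adult gene. In the 50.8 kb upstream of the start of Hba-x (chr11:32276400-32278116), which encodes the embryonic zeta-globin chain, 5 sites were found and all 5 were in both lists. The site at R1, 30.6 kb upstream of Hba-x, had a -log10 q of 15.1 labelled -DOX and 10.1 labelled +DOX. At R2, 25.4 kb upstream and the mouse counterpart of the main human alpha-globin enhancer, the values were 10.2 and 11.5. The site at Rm, 11.1 kb upstream, was the strongest of the 5 in the list labelled -DOX, with 20.1 against 15.3 labelled +DOX. These 3 enhancers lie in introns of Nprl3, and all had RUNX1 summits in both lists at percentiles between 57.6 and 82.6.

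The other 2 upstream sites were weaker in the list labelled -DOX than in the list labelled +DOX. At the promoter of Nprl3, which is also an annotated hypersensitive site, the -log10 q was 8.61 and 14.5. In the gap between Nprl3 and Hba-x, 5.08 kb upstream of Hba-x and at no annotated element, it was 4.62 labelled -DOX (percentile 21.1) and 15.8 labelled +DOX (percentile 75.2). That rise of 54.0 percentile points was larger than at 98.3% of the 14177 sites shared by the lists. Of the 12 hypersensitive sites that RefSeq annotates in the region, 3 had a summit in both lists and 9 in neither, R3 and R4 among the latter. Fold enrichment over local background, the other score of the lists, ran from 3.597 to 6.66 at the 5 sites labelled -DOX and from 5.50 to 6.31 labelled +DOX, around the list medians of 5.05 and 5.21.

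Hba-x had a summit 109 bp downstream of its start, in the untranslated part of the first exon, with a -log10 q of 21.1 labelled -DOX and 9.43 labelled +DOX. Its fold enrichment was 7.34 and 5.05. Its percentile fell by 29.3 points, from 83.6 to 54.3, and only 5.90% of shared sites fell as far or further. No summit lay in or within 1500 bp of Hba-a1 (chr11:32283511-32284465), which encodes adult alpha-globin. Hba-a1 and Hba-a2 are near-identical copies, and reads that fit both may be lost or split by the aligner, so a missing call there is uncertain. No H3K27me3 peak of either library fell in the alpha-globin windows.

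**Figure D3:**
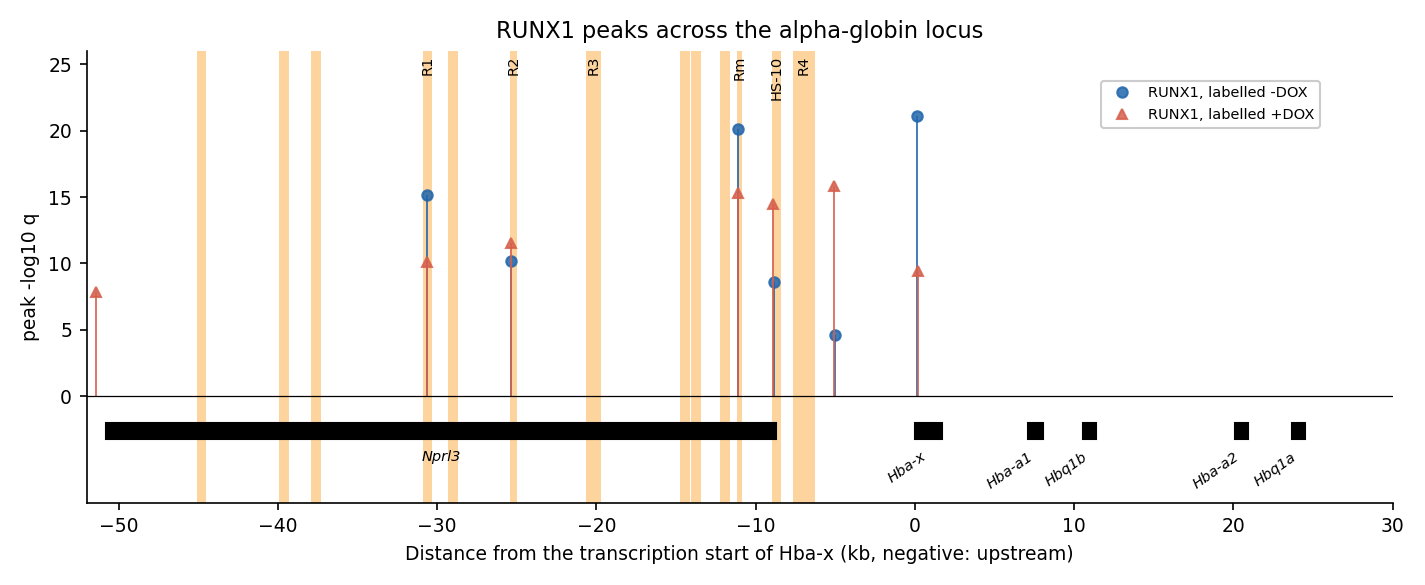
Peaks across the alpha-globin locus by distance from the Hba-x start (x axis, kb) and -log10 q (y axis); circles, RUNX1 library labelled -DOX; triangles, library labelled +DOX; bars below 0, genes; orange bands, annotated hypersensitive sites and Rm. Circles and triangles share their positions, at different heights, at R1, R2, Rm and the Nprl3 promoter, while R3, R4 and the genes downstream of Hba-x have no summit; the triangle at the left edge lies outside the windows.

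At the beta-globin locus RUNX1 sites lay over the 4 hypersensitive sites of the control region nearest to the genes. At 5'HS1, 6.03 kb upstream of Hbb-y, a summit was called only in the list labelled -DOX, with a -log10 q of 6.62. At 5'HS2, 7.86 kb upstream, the values were 13.1 labelled -DOX and 9.65 labelled +DOX. At 5'HS3, 12.7 kb upstream, they were 9.36 and 6.90, and at 5'HS4, 17.7 kb upstream, 18.4 and 7.24. All 4 were thus weaker, or not called, in the library labelled +DOX. Fold enrichment went the same way, from 6.22 to 5.64 at 5'HS2, from 5.37 to 4.93 at 5'HS3 and from 8.30 to 5.30 at 5'HS4. The percentile fell by 14.6 points at 5'HS2, 17.6 at 5'HS3 and 38.4 at 5'HS4, and only 2.94% of all shared sites fell as far as 5'HS4 or further. Over all shared sites the median change went the other way, a rise of 1.83 points. With 1 library per label, and with the labels in doubt, whether this belongs to dnFOS induction cannot be told apart from a difference between the libraries. Of the 8 hypersensitive sites of the region, 4 had a summit in the list labelled -DOX and 3 in the list labelled +DOX, and those further upstream of 5'HS4 had none.

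Inside the beta-globin cluster the pattern was not the same. The strongest site of the locus in the list labelled +DOX, though not in the list labelled -DOX, lay between Hbb-bh1 and Hbb-y, 6.01 kb upstream of Hbb-bh1 and outside any element that RefSeq annotates. Its -log10 q was 9.13 labelled -DOX (percentile 54.9) and 34.7 labelled +DOX (percentile 92.5), a rise of 37.6 points, and its fold enrichment was 5.26 and 9.07. At 3'HS1, the insulator element at the far end of the cluster, the values were 12.1 and 18.6. The 3 remaining sites of the cluster were weak, with -log10 q between 6.03 and 6.45, and only 1 of them was in both lists. Neither Hbb-bh1 (chr7:103841637-103843164), the embryonic beta-H1 gene, nor Hbb-bt (chr7:103812524-103813996), an adult beta-globin gene, had a summit in its body or within 1500 bp of its start. Hbb-bt and Hbb-bs are close copies, and the limit on near-identical genes applies to them too. The library titled DOX had 1 H3K27me3 peak in these windows, 1740 bp from the start of Hbb-bh3 with a -log10 q of 5.10, and the library titled untreated had 0. No H3K27me3 peak lay in the 50 kb upstream of either Hba-x or Hbb-y.

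**Figure D4:**
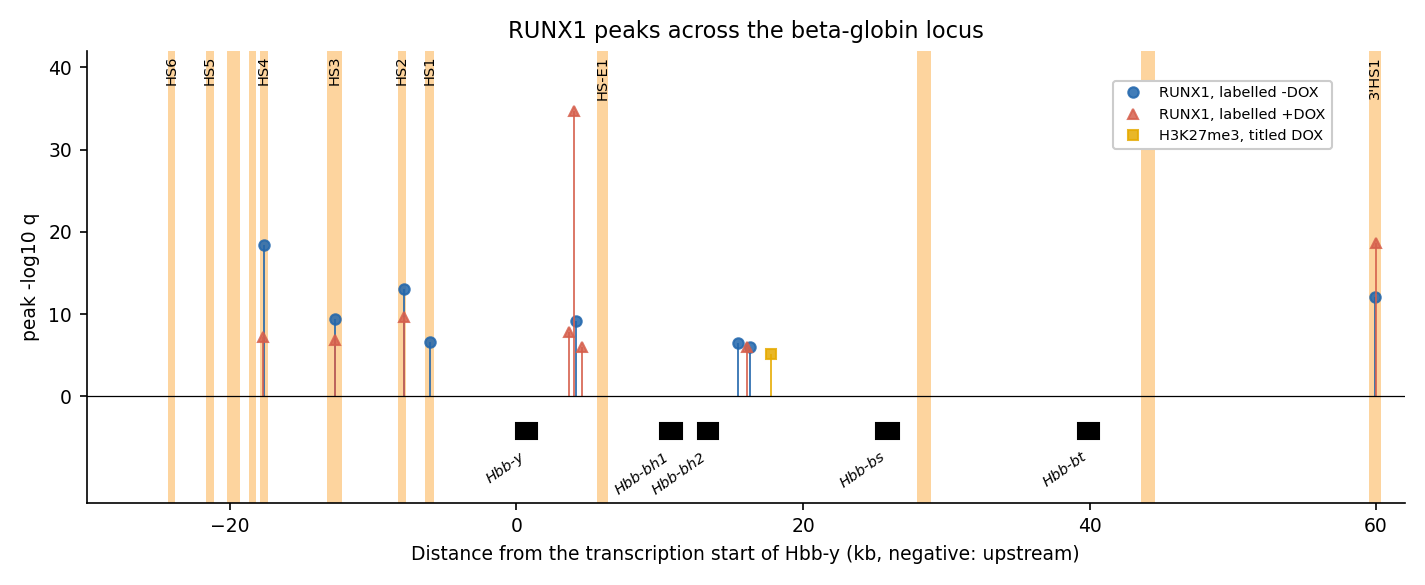
Peaks across the beta-globin locus by distance from the Hbb-y start (x axis, kb) and -log10 q (y axis); circles, RUNX1 library labelled -DOX; triangles, library labelled +DOX; square, H3K27me3 library titled DOX; bars below 0, genes; orange bands, annotated hypersensitive sites. Circles stand above triangles at 5'HS2, 5'HS3 and 5'HS4, and the tallest triangle, at 34.7, lies between Hbb-y and Hbb-bh1.

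The sequences printed above show which letters lay beneath 10 of the 43 summits. All 10 hold a GATA, AP-1 or RUNX match, so they are not typical of the 43 sites. Among control-region sites not printed, 5'HS3 held only a KLF match and the Nprl3 promoter held no match. An AP-1 match was present at 4 of the 43 sites (9.30%, 2.59 to 22.1), against 4.97% of all 24972 sites and 7.71% of all distal sites. All 4 lay in the 9 sites of the globin control regions: R2, Rm, 5'HS1 and 5'HS2. At 5'HS2 there were 2 AP-1 matches, 10 and 20 bp from the summit labelled -DOX, and RefSeq annotates the tandem footprinted NF-E2 sites over them. At R2 the AP-1 match, 57 bp from the summit, lies in an annotated AP1/NF-E2 site. A GATA match was present at 5 of the 9 control-region sites (R1, R2, Rm, 5'HS1 and 5'HS4), against 11.7% of all sites and 19.7% of all distal sites. At R1 it began 6 bp from the summit. At 5'HS2 RefSeq annotates a footprinted GATA-1 site, 43 bp from the summit labelled -DOX, which AGATAA did not match. With 9 sites the exact interval runs from 21.2 to 86.3% for the GATA share and from 13.7 to 78.8% for the AP-1 share. These regions were known beforehand to carry GATA1 and NF-E2 sites. High shares there could be foreseen, and they are no finding about RUNX1 binding.

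RUNX letters were not more frequent at these loci. TGTGGTT was found at 6 of the 43 sites (14.0%, 5.30 to 27.9), against 14.2% of all sites. Those 6 were Rm, the site between Nprl3 and Hba-x, 3'HS1, the site between Hbb-bh1 and Hbb-y, and the sites upstream of Slc4a1 and Tfrc. In the site between Hbb-bh1 and Hbb-y it began 6 bp from the summit. GATA was found at 9 of the 43 sites (20.9%, 10.04 to 36.0). ETS matches were at 10 sites (23.3%, against 29.9% of all sites), KLF matches at 16 (37.2%, against 41.1%), and PU.1 and C/EBP matches at 3 each (6.98%, against 4.66% and 6.46%). The interval of each of these shares covers the share of all sites. Over 400 bp the C/EBP share was 16.3%, against 12.2% of all sites, and with a wider consensus the GATA share was 34.9%, against 25.4%.

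The 3 membrane genes differed in where RUNX1 lay. Slc4a1 (chr11:102348824-102366203) encodes band 3, the anion exchanger of the red cell membrane. Its nearest site was 2324 bp upstream of the start, with a -log10 q of 7.15 labelled -DOX and 6.16 labelled +DOX, and held a RUNX match 31 bp and a GATA match 80 bp from the summit. A stronger site lay 1685 bp downstream of the start of Bloodlinc, an erythroid long noncoding RNA gene next to Slc4a1, with 16.3 and 15.1, values close to each other in both lists. The strongest site of the window was at Slc25a39, which encodes a mitochondrial carrier needed for heme synthesis, with 27.4 and 20.3. Another site 614 bp upstream of Slc25a39 had 2.26 labelled -DOX and 12.5 labelled +DOX, and its rise of 65.4 percentile points exceeded that of 99.5% of shared sites.

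Epb42 (chr2:121017891-121037072) encodes protein 4.2, which ties band 3 to the membrane skeleton. Its own promoter held a weak summit 35 bp upstream of a start, with a -log10 q of 3.95 labelled -DOX (percentile 14.1) and 7.97 labelled +DOX (percentile 45.7). An intron of Tgm5 in the same window had 5.03 and 16.5, a rise of 52.5 points that exceeded that of 97.9% of shared sites. The strongest site of the window was at the start of Ubr1, with 25.5 labelled -DOX and 30.1 labelled +DOX (percentiles 87.7 and 90.4), and the other 2 lay at the starts of Tmem62 and Ccndbp1. All 5 sites of the window were in both lists, and no H3K27me3 peak lay in it.

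Ank1 (chr8:22974844-23150497) encodes ankyrin, which links band 3 to spectrin, and was alone among the 9 genes in having RUNX1 sites overlapped by H3K27me3 peaks in its own body. Its promoter site, 170 bp downstream of a start, had a RUNX1 -log10 q of 6.14 labelled -DOX and 8.08 labelled +DOX. An H3K27me3 peak of each library overlapped it, with a -log10 q of 17.8 in the library titled untreated and 2.68 in that titled DOX, where a stronger neighbouring peak at the start had 9.66. The second site, in an intron at chr8:23095589, was the strongest of all 43, with a RUNX1 -log10 q of 89.8 and 85.5 and fold enrichments of 17.1 and 17.9. At the same place the H3K27me3 lists had a -log10 q of 139.7 and 179.9 and fold enrichments of 30.2 and 35.2, with summits at 23095574 and 23095583, so all 4 lists had a peak there at percentiles between 98.8 and 99.7. Of the 400 bp around the summit, 73% were soft-masked as repeat, and no other site of the 43 was above 50%. By their methods, the authors filtered peaks against a blacklist and a repeat list of mm10. No such filter was applied here, and the part of the repeat in this signal was not tested. A further site overlapped by H3K27me3, at the promoter of Tnk2, lay in the Tfrc window, and these 3 sites are 6.98% of the 43 (1.46 to 19.1), against 7.76% of all RUNX1 sites.

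Tfrc (chr16:32608920-32632794) encodes the transferrin receptor through which erythroid cells take up iron. Its promoter had a summit 51 bp upstream of the start, with a -log10 q of 9.14 labelled -DOX and 18.0 labelled +DOX, at percentiles 54.9 and 79.2. The site 728 bp upstream, printed above with its GATA and RUNX matches, was called only in the list labelled -DOX, at 6.25. Beyond the end of the gene 1 site had 13.8 labelled -DOX and 7.69 labelled +DOX, and another was called only in the list labelled +DOX, at 4.87. The promoter and the downstream site thus moved in opposite directions between the lists. The other 3 sites lay in Tnk2 and its antisense gene, the strongest with 22.6 and 27.3, and H3K27me3 peaks in the window, 2 and 1, lay at the Tnk2 promoter.

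Over the 32 shared sites of the 9 genes, the percentile was higher in the list labelled -DOX at 18 and higher in the list labelled +DOX at 14 (43.8%), with a median change from -DOX to +DOX of -2.78 points. Over all 14177 shared sites 58.0% were higher in the list labelled +DOX. The middle 90% of all changes ran from -31.5 to 41.6 points, so most of the changes given above lie within the usual spread between the lists. The exceptions were 5'HS4, which fell further, and the sites between Nprl3 and Hba-x, in Tgm5 and upstream of Slc25a39, which rose further. A few of any 32 shared sites would lie outside the middle 90%, so these are not shown to be particular to the 9 genes.

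**Figure D5:**
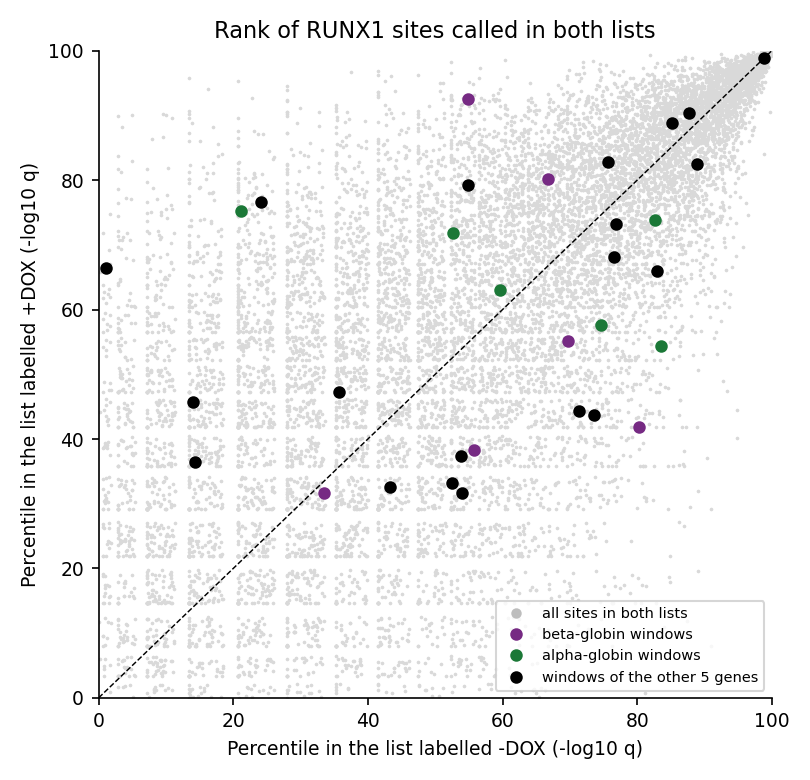
Percentile of -log10 q in the list labelled -DOX (x axis) and in the list labelled +DOX (y axis) for every RUNX1 site in both lists (grey) and for the 32 sites of the 9 genes (coloured by locus); the dashed line marks equal rank. Points of the 9 genes lie on both sides of the line, 18 below and 14 above, and the Ank1 intron site is at the upper right corner.

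The wider erythroid program was counted in the same way over 46 further genes. A RUNX1 summit lay within 1500 bp of a start in 31 of the 46 (67.4%), against 50.03% of all protein-coding genes. A site lay in the window of 44 of 46 (95.7%), against 78.0% of all protein-coding genes. The share differed among groups. All 8 genes of heme synthesis had a summit at a start, as did 6 of 7 genes of iron handling, 8 of 12 membrane genes, 6 of 9 enzyme and maturation genes and 3 of 4 regulators, but 0 of 6 further globin genes. Together with the 4 globin genes above, Hba-x was thus the only globin gene of the 10 counted with a RUNX1 summit called at its start. The missing calls at the near-identical copies Hba-a1 and Hba-a2, and Hbb-bt and Hbb-bs, are uncertain. Hbb-bh0 was not among the 10. The site between Hbb-bh1 and Hbb-y lay 974 bp from its start. These groups were chosen by function with earlier results known and carry no test.

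In the wider list 2 genes had 3 sites each that were all in the same list. At Alas2, which encodes the first and rate-limiting enzyme of erythroid heme synthesis, the 3 sites were called only in the list labelled -DOX, with -log10 q of 5.30 at 549 bp upstream of a start, 10.3 at 2394 bp downstream and 3.85 at 1550 bp upstream of another start. At Trf, which encodes transferrin, the 3 sites were called only in the list labelled +DOX, with 4.88 at 446 bp upstream of Trf itself, and 7.44 and 3.34 at 158 and 10999 bp from the start of its neighbour Srprb, the nearest start for both. Both were picked out after their values were seen, and 5 of these 6 sites are below 10. Over all RUNX1 sites 14.8% were only in the list labelled -DOX and 28.4% only in the list labelled +DOX. Other genes of the wider list also had all their sites in 1 list. These were Bcl11a with 2 and Rhag with 1 labelled +DOX, and Steap3 and Alox15 with 1 each labelled -DOX. The share of all protein-coding genes with every site in 1 list is not given here. Such genes are thus not shown to be more frequent in this list than elsewhere.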

How the data were processed

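Peak lists of 4 ChIP-seq libraries were used, 2 for RUNX1 and 2 labelled H3K27me3. By their methods, the authors used Trimmomatic 0.39 for trimming, Bowtie2 2.3.5 (2.2.9 in the submitters' processing notes) for alignment to mm10, Picard 2.20.2 for duplicate removal and MACS2 (2.1.1 in those notes) for peak calling in each library at a q-value of 0.05. No input control is named, and the H3K27me3 processing is not described. The deposited values were the ratio of the peak to its local background (fold enrichment), the −log10 p-value, which was not used, and the −log10 q-value. No read counts were used, so depth is unknown and intervals cover counting error only.

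RUNX1 summits were extended by 200 bp on each side and merged into 24972 sites with Python 3.11.15, numpy 2.4.6 and scipy 1.17.1. Summits were assigned to gene windows and nearest starts with GENCODE vM21, and control elements were named from the RefSeq annotation of GRCm38.p6. Motifs were sought in 200 bp at the summit on both strands. Of the further erythroid genes 46 were found, and 1 (Ahsp) had no entry. All sites nearest to or inside a member, those of control regions and the strongest of each window are given with values. The members, lists and elements were chosen with earlier results of these data known. The steps were checked on simulated sites and motifs. No conditions were tested, because each had 1 library.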

Additional observations from a re-analysis of the deposited data

How the results depend on the processing

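With 1 library per condition, no replicate could be left out, and an absent peak says only that it was not called. No paired analysis was possible because no 2 samples of a group exist. Of 70 recomputed values 40 stayed within the limits set for them and 30 moved. The 43 sites became 20 within 10 kb, 70 within 100 kb, 23 with a −log10 q threshold of 10 and 16 among the 5000 strongest peaks of each list. Sites only labelled -DOX became 2 (10 kb), 8 (100 kb), 8 (5000 strongest) and 7 (labels exchanged), and those only labelled +DOX became 3, 18, 3 and 4, and 11 with summits extended by 100 bp. With the threshold of 10 and with the 5000 strongest peaks, nearest-start sites became 4 and 3, genes with a promoter summit 3 and 3, sites under H3K27me3 1 and 1, and beta-globin control sites 2 and 1, while alpha-globin control sites became 2 among the 5000 strongest. H3K27me3 peaks became 5 (10 kb) and 4 (threshold of 10) in the library titled untreated, and 9 (10 kb), 9 (threshold of 5) and 1 (threshold of 10) in that titled DOX. Motif shares moved to 34.9% for RUNX with a wider consensus (37.4% of all sites at that setting), and over 400 bp to 41.9% for ETS (43.6%) and 53.5% for KLF (58.4%), each below its own background. GATA with a wider consensus (34.9%) and C/EBP over 400 bp (16.3%) rose over 1.5 times but stayed within their intervals. For the single-list counts no share over all sites is given at the changed settings, so their moves cannot be called particular to these genes. The cause of the moves in single-list sites was not tested, apart from the exchange of labels, which swaps them.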
